A study of Mus musculus with 2 samples.

Results

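The 32 genes described here encode the enzymes that make cholesterol, the proteins that regulate this synthesis, and the proteins that take up, store, export or clear cholesterol in the brain. They were picked by symbol from a list of 32 names, and all 32 were found among the 55573 gene rows of the deposited table. The table gives hippocampal RNA of 2 libraries, both from C57BL/6 mice that carry the floxed *CDK5* alleles (*CDK5f/f*). The control library is *CDK5f/f* without treatment, and the mutant library is *Cdh5-CreERT2;CDK5f/f* with tamoxifen. Pairs of values below give the control library first and the mutant library second. *Cdh5* is an endothelial cadherin gene, so its promoter directs the inducible Cre recombinase to endothelial cells, a small part of the RNA of whole hippocampus. Neither the age of these mice nor the number of mice behind each library is stated for these libraries. With 1 library per genotype, no difference below has a replicate check, a test between genotypes or a p-value, and genotype, tamoxifen and any difference between the mice cannot be told apart.

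The brain makes nearly all of its own cholesterol, because lipoproteins of the blood do not cross the blood-brain barrier. Acetyl-CoA is built up through mevalonate to farnesyl pyrophosphate and squalene, which is closed to lanosterol and then trimmed to cholesterol. When sterols in the endoplasmic reticulum are low, SCAP escorts the SREBP transcription factors to the Golgi, where they are cut and released to switch on the genes of synthesis. When sterols are high, the INSIG proteins hold SCAP and SREBP back. Astrocytes load cholesterol onto apolipoprotein E, neurons take up these particles through receptors of the LDL receptor family, and neurons clear excess cholesterol by oxidising it.

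The libraries differed in makeup. The tissue was checked by 12 neuron markers, none of which was under an FPKM of 24.16 in a library (reads per exon length and library total), and by the granule cell gene *Prox1* and the pyramidal cell gene *Wfs1*, which had ratios of counts per library total, mutant over control, of 0.783 and 1.64, while another pyramidal cell gene, *Fibcd1*, was at 0.842. *Cdk5* had a ratio of 1.03, which in whole tissue does not check its loss in endothelial cells. All 12 choroid plexus markers were more than 1.5-fold higher in the mutant library, with a summed FPKM of 173 and 3892 and none at 0. *Xist* had 15070 counts in control and 34 in mutant hippocampus, so the mice also differed in sex. Choroid plexus RNA, sex and the levels of *Prox1* and *Wfs1* differ along with genotype here, and their part in any ratio below was not tested.

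Levels of the cholesterol genes were close in the 2 libraries. None of the 32 was past 1.5-fold, where a gene counted as past it when the ratio of FPKM + 1, mutant over control, reached 1.5 in either direction. FPKM is the count of reads divided by exon length and by the library's summed counts. Among all 14769 measured genes, meaning those that reached an FPKM of 1 in either library, 3.64% were past 1.5-fold higher and 3.16% past 1.5-fold lower in the mutant library. Past 1.2-fold were 2 of the 32 genes, *Soat1* on the higher side and *Hsd17b7* on the lower side. Of all measured genes, 11.8% were past 1.2-fold higher and 9.96% past it lower. These shares of all measured genes include genes with few counts, whose ratios scatter more, while all 32 genes had at least 144 counts in each library. The log2 ratios of the 32 had a median of 0.00, as did those of all measured genes (0.00). The median size of the log2 ratio, regardless of direction, was 0.07 for the 32 genes, 0.12 for all measured genes and 0.10 for the 11552 genes with at least 100 counts in each library. In RNA of whole tissue, fewer cells of a type and less RNA per cell cannot be told apart.

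Counting error alone did not cover every difference, among these 32 genes as among all genes with at least 100 counts in each library. Each gene's ratio of counts, scaled by library totals, carries an exact conditional 95% interval from the binomial distribution, which accounts for the sampling of reads but not for how mice vary. This interval lay above 1 for 7 of the 32 genes (21.9%) and below 1 for 4 (12.5%), and it included 1 for 21. Among the 11552 genes with at least 100 counts in each library, which all 32 reach, the interval lay above 1 for 20.4% and below 1 for 18.9%. The 4 genes with intervals below 1 are 3 synthesis enzymes, *Hmgcs1*, *Msmo1* and *Hsd17b7*, and the feedback protein gene *Insig1*. The 7 with intervals above 1 are *Sqle*, *Srebf1*, *Scap*, *Lrp1*, *Soat1*, *Apoe* and *Cyp46a1*, of which only *Sqle* encodes an enzyme of synthesis.

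**Figure D1:**
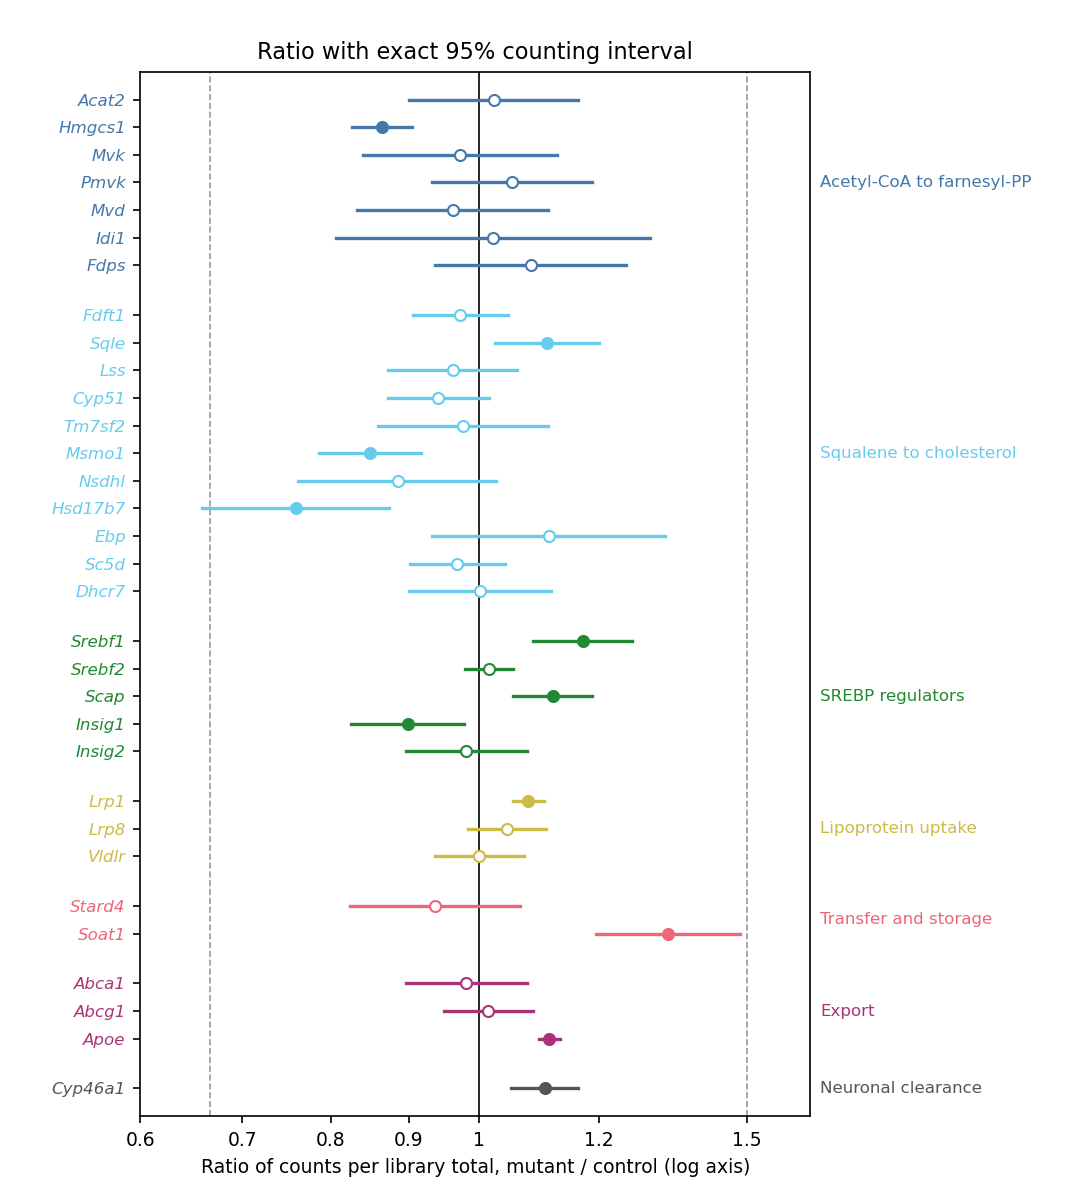
Ratio of counts per library total, mutant over control (log axis), for each of the 32 genes grouped by role, with bars for the exact 95% counting interval; filled points have an interval that excludes 1 and dashed lines mark 1.5-fold. The 4 filled points below 1 are Hmgcs1, Msmo1, Hsd17b7 and Insig1, and no point reaches a dashed line.

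Promoters are shown for the genes with intervals below 1, a choice made by the ratios and not by the motifs. The SREBP proteins act through short motifs in the promoters of their target genes, usually together with the factors that bind CCAAT boxes. RefSeq windows of 250 bases before to 50 bases after a start site (GRCm38.p6) were found for 27 of the 32 genes, and they were searched on both strands for the sterol regulatory element TCACNCCAC, the E-box CACGTG and the CCAAT box. The stretches below end before the start of the gene in the deposited table, are written 5′ to 3′ on the strand of the gene, and carry the motifs in capitals (ATTGG is the CCAAT box read on the opposite strand). No such stretch with a motif was left for *Msmo1*, whose RefSeq window lies largely inside the gene as the table places it.
Hmgcs1, chr13:119690104-119690320, plus strand: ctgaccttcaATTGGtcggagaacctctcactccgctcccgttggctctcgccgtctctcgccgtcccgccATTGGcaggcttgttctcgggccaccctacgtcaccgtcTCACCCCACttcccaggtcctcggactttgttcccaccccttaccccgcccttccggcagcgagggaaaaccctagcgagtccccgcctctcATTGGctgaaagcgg
Hsd17b7, chr1:169969264-169969380, minus strand: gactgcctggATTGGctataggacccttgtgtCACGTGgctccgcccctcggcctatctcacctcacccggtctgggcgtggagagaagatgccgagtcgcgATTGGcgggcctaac
Insig1, chr5:28071186-28071326, plus strand: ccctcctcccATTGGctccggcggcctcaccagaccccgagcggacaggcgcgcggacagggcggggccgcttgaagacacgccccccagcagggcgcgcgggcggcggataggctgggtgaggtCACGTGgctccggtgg

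*Hmgcs1* was the only gene of the 27 with the exact sterol regulatory element in its window, 137 bases before the start site, while 1.44% of the 27025 genes with a RefSeq window had it. Counted by gene, the E-box was found for 6 of the 27 (22.2%, against 8.09% of all genes), namely *Hsd17b7*, *Insig1*, *Abca1*, *Dhcr7*, *Sc5d* and *Scap*. A CCAAT box was found for 21 of the 27 (77.8%, against 41.1% of all genes). Some genes have several windows, 40 for the 27 genes and 32851 in all, and counted by window the shares were nearer to each other, at 17.5% against 7.15% for the E-box and 55.0% against 37.4% for the CCAAT box. These matches describe the letters in the windows, and neither binding nor a link to the ratios was tested. Among these E-box genes, the counting interval lay above 1 for *Scap* and below 1 for *Hsd17b7* and *Insig1*. It included 1 for *Abca1*, *Dhcr7* and *Sc5d*.

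Levels spanned more than the ratios did. From the lowest to the highest, the FPKM ran from 2.13 for *Idi1* to 729.8 for *Apoe* in the control library and from 2.17 to 812 for the same genes in the mutant library. Together the 32 genes took 0.427% of all counts in the control library (exact 95% interval 0.424% to 0.430%) and 0.450% in the mutant library (0.447% to 0.453%). *Apoe* alone was 36.6% of these counts in the control library (exact 95% interval 36.2% to 36.9%) and 38.6% in the mutant library (38.3% to 38.9%). After *Apoe*, the highest mean levels belonged to *Cyp46a1*, *Hmgcs1*, *Srebf2* and *Lrp1*, all at 39.09 FPKM or more in each library, and their order among themselves differed between the libraries. *Hmgcs1* was level with *Cyp46a1* in the control library (46.70 and 46.72) and below *Cyp46a1*, *Srebf2* and *Lrp1* in the mutant library (40.35). FPKM here divides by the length of all annotated exons of a gene (10787 bases for *Lss*), so the order of levels between genes also depends on the annotation.

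**Figure D2:**
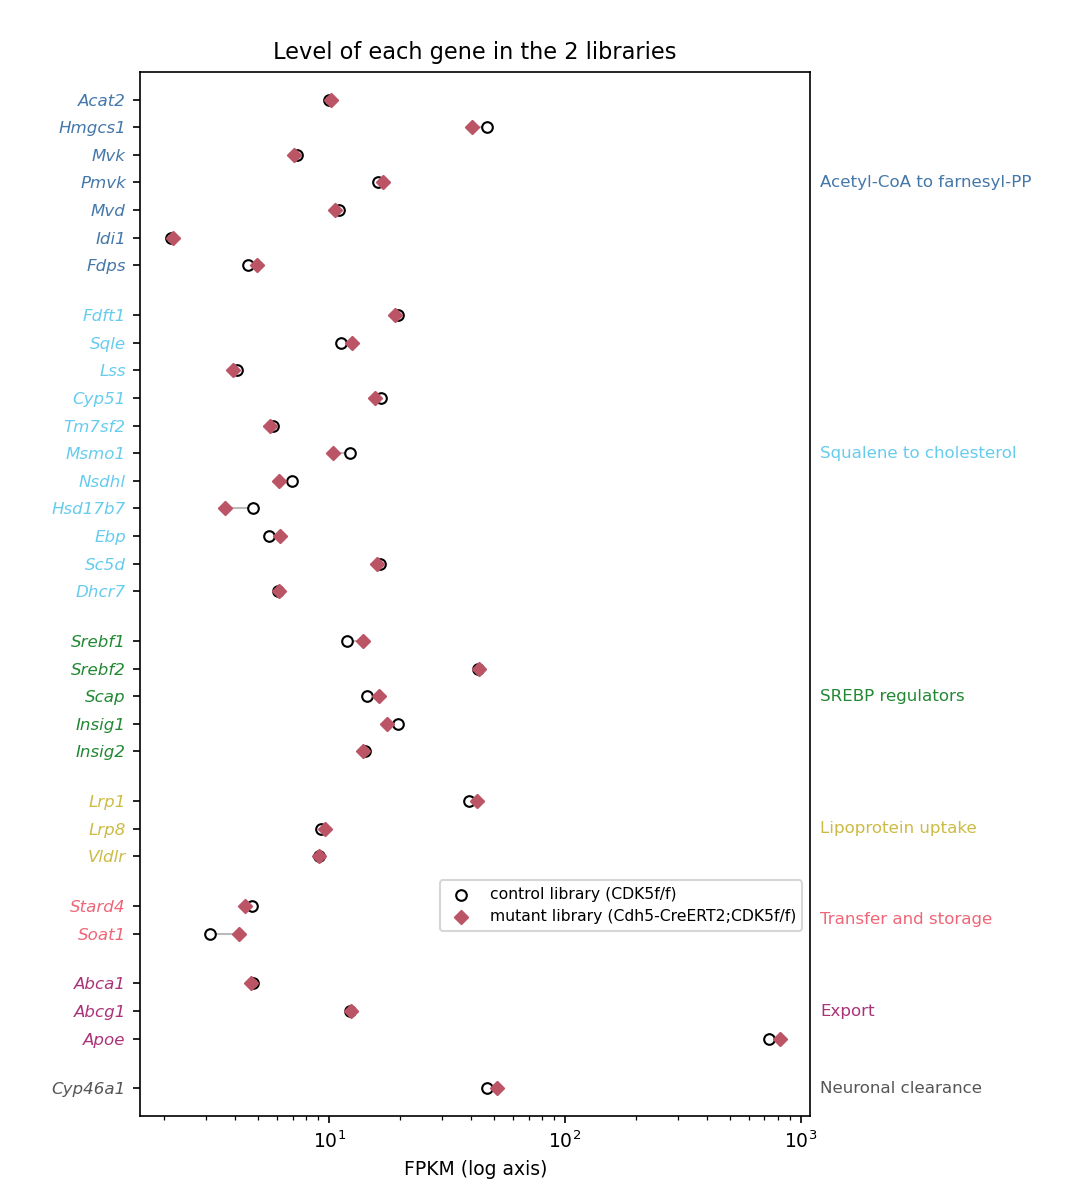
FPKM (log axis) of each of the 32 genes in the control library (open circles) and the mutant library (filled diamonds), grouped by role. Symbols of a gene nearly coincide for most genes, with the widest gaps at Hsd17b7 (4.75 and 3.61) and Soat1 (3.11 and 4.14), and Apoe stands far above the rest.

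The early steps of synthesis, from acetyl-CoA to farnesyl pyrophosphate, were represented by 7 enzymes. *Hmgcs1*, the cytosolic HMG-CoA synthase, spans 119690379 to 119708260 of chromosome 13 (GRCm38). It had 4173 counts in control and 3504 in mutant hippocampus, an FPKM of 46.7 and 40.35. The mutant library was lower, with a ratio of 0.864 (exact 95% counting interval 0.826 to 0.904) and a log2 ratio of -0.21 on the scale of FPKM + 1. Of all measured genes, 29.6% had a log2 ratio of larger size than that of *Hmgcs1*. *Hmgcs1* made up 24.7% of the counts of the 18 synthesis enzymes in the control library (exact 95% interval 24.1% to 25.4%) and 22.7% in the mutant library (22.01% to 23.3%).

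The other early enzymes differed by no more than their counting error. *Acat2*, which in the mouse encodes the cytosolic thiolase that joins the first acetyl-CoA units, had 494 counts in control and 491 in mutant hippocampus, an FPKM of 9.98 and 10.21. *Mvk*, the mevalonate kinase, had 380 and 359 counts (FPKM 7.30 and 7.10), and *Pmvk*, which adds the next phosphate, had 536 and 548 (16.09 and 16.93). The 3 pairs of values nearly coincide, and their ratios run from 0.972 for *Mvk* to 1.05 for *Pmvk*. *Mvd*, the decarboxylase that makes isopentenyl pyrophosphate, had 398 and 372 counts (FPKM 11.01 and 10.59), and *Idi1*, the isomerase that follows, 145 and 144 (2.13 and 2.17). *Fdps*, the farnesyl pyrophosphate synthase, had 372 and 391 counts (FPKM 4.54 and 4.92). With so few counts the interval of *Idi1* was wide, 0.806 to 1.30, and a difference within it was not detectable at this depth. The 7 genes had a median log2 ratio of 0.02, with 4 ratios above 1 and 3 below.

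Levels of 3 of these 7 enzymes are uncertain because near-identical copies can split their reads. *Acat2* matches *Acat3*, also on chromosome 17, over 1477 bases at 97.7% identity, and *Acat3* had 94 counts in control and 103 in mutant hippocampus. *Fdps* has 4 processed pseudogenes at over 95% identity, of which *Gm3571* had 59 and 46 counts. *Idi1* has 2 such pseudogenes, and *Gm13502* matches it at 100% identity over 684 bases with 5 and 6 counts. The transcript model *Gm43738* shares 1124 of the 4208 exonic bases of *Fdps* on the same strand and was at 0 counts in both libraries. The handling of reads that match several places is not given in the sources used.

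The steps from squalene to cholesterol were represented by 11 enzymes, of which 8 had ratios below 1 and 3 above. Their median log2 ratio was -0.04, beside 0.00 over all measured genes. *Hsd17b7*, the ketoreductase that finishes the removal of the methyl groups next to the sterol hydroxyl, lies on chromosome 1 from 169949535 to 169969241. Its counts were 472 in control and 348 in mutant hippocampus, an FPKM of 4.75 and 3.61. This was the lowest ratio of all 32 genes, 0.759 (interval 0.659 to 0.873), with a log2 ratio of -0.32, and 16.8% of measured genes had a log2 ratio of larger size. *Msmo1*, the methylsterol oxidase that starts the same series of reactions, had 1458 and 1203 counts, an FPKM of 12.20 and 10.36 (ratio 0.849, interval 0.786 to 0.917). *Nsdhl*, the decarboxylating dehydrogenase between them, had 385 and 331 counts, an FPKM of 6.94 and 6.14. All 3 enzymes of C4 demethylation were thus lower in the mutant library, but the interval of *Nsdhl*, 0.762 to 1.03, included 1.

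Entry into the sterol branch did not go the same way. *Sqle*, the squalene monooxygenase that makes the epoxide from which sterols are closed and a rate-limiting step of synthesis, had 1214 counts in control and 1308 in mutant hippocampus, an FPKM of 11.25 and 12.48. It was higher in the mutant library by a ratio of 1.11 (interval 1.02 to 1.1999). Within the control library the FPKM of *Sqle* was 0.922 times that of *Msmo1*, and within the mutant library 1.205 times. *Fdft1*, the squalene synthase before it, had 1571 and 1485 counts (FPKM 19.62 and 19.09), and *Lss*, the lanosterol synthase after it, 852 and 796 (4.06 and 3.90). Both of these neighbours had ratios just below 1 with intervals that included it, 0.906 to 1.04 for *Fdft1* and 0.872 to 1.06 for *Lss*.

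For the 5 enzymes left, the intervals also included 1. *Cyp51*, the lanosterol demethylase, had 1427 counts in control and 1305 in mutant hippocampus, an FPKM of 16.62 and 15.64 (ratio 0.941, interval 0.872 to 1.02). *Tm7sf2*, a sterol reductase of the endoplasmic reticulum, had 493 and 468 counts (FPKM 5.76 and 5.62), and *Sc5d*, the sterol desaturase, 1557 and 1465 (16.45 and 15.93). These 3 were slightly lower in the mutant library. *Dhcr7*, the reductase of the last step, had 689 and 671 counts (FPKM 6.09 and 6.10, ratio 1.00), the closest match among the enzymes. *Ebp*, the sterol isomerase, had 249 and 269 counts (FPKM 5.54 and 6.16), and its ratio of 1.11 has an interval of 0.932 to 1.33. *Ebp* and *Nsdhl* are the 2 genes of the 32 on chromosome X, and their ratios lie on opposite sides of 1.

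Summed over the 18 enzymes, synthesis transcripts had 16865 counts in control and 15458 in mutant hippocampus. The ratio of these sums was 0.943 (interval 0.923 to 0.964), and a sum weighs the genes by their counts. An interval of a sum covers the sampling of reads only, not the spread between genes or mice. Of the 18 ratios, 11 were below 1, and the median log2 ratio was -0.04, beside 0.00 over all measured genes. For single enzymes, the interval lay below 1 for 3 and above 1 for 1. Among genes with at least 100 counts in each library, it lay below 1 for 18.9% and above 1 for 20.4%. Without *Hmgcs1* the ratio of the sums was 0.969 (interval 0.945 to 0.994), and the difference in summed counts was 1407 with it and 738 without it. The 14 other genes had 66145 and 69601 counts, a ratio of 1.08 (interval 1.07 to 1.09), with 10 ratios above 1 and a median log2 ratio of 0.04. Their single intervals lay above 1 for 6 and below 1 for 1. Without *Apoe* the 13 genes left had 35794 and 36787 counts, a ratio of 1.06 (interval 1.04 to 1.07) and a median log2 ratio of 0.02.

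Regulators of synthesis differed in direction. *Srebf1*, the SREBP gene best known for fatty acid synthesis, had 1305 counts in control and 1484 in mutant hippocampus, an FPKM of 11.91 and 13.94. It was higher in the mutant library by a ratio of 1.17 (interval 1.09 to 1.26). *Scap*, the sterol sensor and escort of SREBP, had 2102 and 2284 counts (FPKM 14.52 and 16.24, ratio 1.12, interval 1.05 to 1.19). *Srebf2*, the SREBP gene that mainly drives cholesterol synthesis, had 5960 and 5881 counts (FPKM 42.65 and 43.31), and its ratio of 1.02 has an interval of 0.979 to 1.05. *Srebf2* exceeded *Srebf1* by 3.58 times in FPKM in the control library and by 3.11 times in the mutant library.

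*Insig1*, which retains SCAP and is itself switched on by SREBP, lies on chromosome 5 from 28071363 to 28078662. It had 1173 counts in control and 1024 in mutant hippocampus, an FPKM of 19.50 and 17.52, and was lower in the mutant library (ratio 0.898, interval 0.825 to 0.978). *Insig2*, which does the same and depends less on SREBP, had 959 and 915 counts (FPKM 14.20 and 13.94, ratio 0.982, interval 0.896 to 1.08). *Insig1* exceeded *Insig2* in FPKM in both libraries, by 1.37 and 1.26 times. Exons of *Srebf1* overlap those of *Rai1* on the opposite strand by 109 bases, and *Scap* shares 985 bases with an opposite-strand model of 55 and 50 counts. Opposite-strand exons also overlap *Fdft1* (774 bases with *Ctsb*, which had 9381 and 9856 counts) and *Hmgcs1* (557 bases with a model of 14 and 13 counts), and *Tm7sf2* shares 532 bases with *Vps51* on the same strand. Exons of *Cyp51*, *Idi1* and *Lss* have overlaps of 166 to 381 bases on the opposite strand, and *Fdft1* has a pseudogene, *Gm6781*, with 1 count in each library. The use of strand in counting is not stated, so the levels of these genes are uncertain where exons overlap.

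The receptors for lipoproteins were at most slightly higher in the mutant library. *Lrp1*, a large receptor of neurons and astrocytes for apolipoprotein E, had 13473 counts in control and 14113 in mutant hippocampus, an FPKM of 39.09 and 42.15. Its depth makes the interval narrow, 1.05 to 1.10 around a ratio of 1.08. *Lrp8*, the apolipoprotein E receptor that also binds reelin, had 2268 and 2300 counts (FPKM 9.19 and 9.59), and *Vldlr*, the other reelin receptor, 1774 and 1726 (9.06 and 9.07). Intervals of both reelin receptors included 1, at 0.984 to 1.11 and 0.937 to 1.07. *Lrp1* exceeded the reelin receptors more than 4 times in FPKM in both libraries, by 4.25 and 4.40 times for *Lrp8*.

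Inside the cell, *Soat1* had the highest ratio of the 32 genes. It encodes the acyltransferase that esterifies cholesterol for storage and lies on chromosome 1 from 156424525 to 156474331. It had 592 counts in control and 766 in mutant hippocampus, an FPKM of 3.11 and 4.14 (ratio 1.33, interval 1.19 to 1.48, log2 ratio 0.32). Of all measured genes, 16.5% had a log2 ratio of larger size. *Stard4*, a soluble carrier of sterols and a target of SREBP, had 510 and 464 counts (FPKM 4.69 and 4.39). It was slightly lower in the mutant library, with an interval of 0.824 to 1.06 that included 1.

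Of the export genes, *Apoe* was higher and the transporters were level. *Apoe*, on chromosome 7 from 19696109 to 19699188, encodes the main lipoprotein of the brain and had 30351 counts in control and 32814 in mutant hippocampus, an FPKM of 729.8 and 812. The ratio was 1.11 (interval 1.10 to 1.13). *Abca1*, which loads cholesterol onto apolipoproteins, had 957 and 913 counts (FPKM 4.75 and 4.66), and *Abcg1*, a partner in efflux, 1734 and 1710 (12.21 and 12.40). Their ratios of 0.982 and 1.015 have intervals that included 1. Both transporter genes are targets of the LXR oxysterol receptors. *Cyp46a1*, the neuronal hydroxylase that turns cholesterol into an oxysterol able to leave the brain, had 2987 and 3207 counts, an FPKM of 46.72 and 51.62. It was higher in the mutant library by a ratio of 1.10 (interval 1.05 to 1.16).

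**Figure D3:**
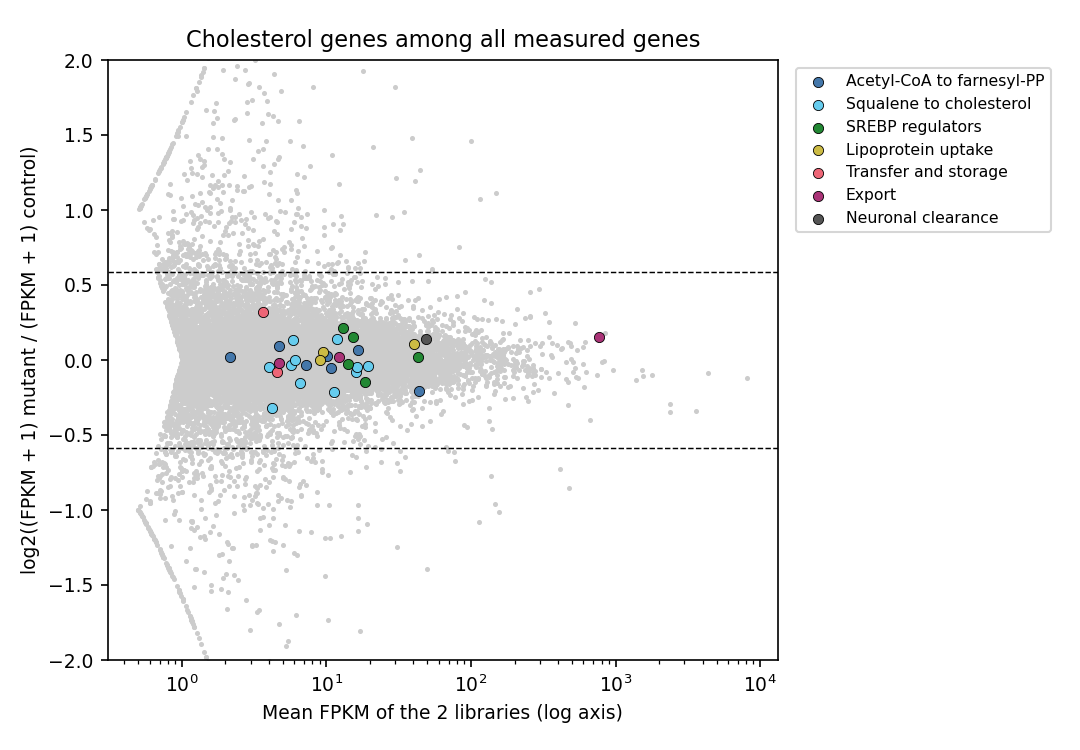
Log2 ratio of FPKM + 1, mutant over control, against mean FPKM of the 2 libraries (log axis) for all 14769 measured genes (grey) and the 32 genes coloured by role; dashed lines mark 1.5-fold and 67 measured genes lie outside the plotted range. The 32 genes sit inside the grey band between -0.32 and 0.32.

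Of other genes of sterol and lipid handling, from lists that name 72 genes, 67 were measured, with none past 1.5-fold higher and 1 past it lower, beside 3.64% and 3.16% of all measured genes. Past 1.2-fold were 7 higher and 1 lower (11.8% and 9.96% of all measured genes). The counting interval lay above 1 for 17 and below 1 for 12 of the 67 (20.4% and 18.9% of genes with at least 100 counts in each library), and their median log2 ratio was 0.05. The 67 were kept by FPKM and not by counts, so some, such as *Apoc1*, are under 100 counts. The gene past 1.5-fold was *Apoc1*, a small apolipoprotein gene beside *Apoe*, with 22 counts in control and 5 in mutant hippocampus. Among 13 measured lipoprotein genes, *Apod*, a small lipid carrier gene, was higher in the mutant library (2929 and 3537 counts, ratio 1.24, interval 1.18 to 1.31). *Clu*, which encodes the lipid carrier clusterin and was chosen after its values were seen, had 15486 and 18468 counts (ratio 1.23, interval 1.201 to 1.25). *Lcat*, the enzyme that esterifies cholesterol on lipoproteins, had 408 and 494 counts (ratio 1.25, interval 1.09 to 1.42). These apolipoprotein and lipoprotein genes did not go one way as a group, with 6 ratios above 1, 7 below and a median log2 ratio of -0.01. The counting interval lay above 1 for 5 of the 13. It lay below 1 for 4, namely *Apoc1*, *Lpl* (ratio 0.803), *Lrp4* (0.843) and *Sort1* (0.947).

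From each of the other lists, up to 3 genes with the largest log2 ratios among those with an FPKM of 5 or more in either library are given. In the list of sterol traffic, 10 of 13 ratios were above 1. The counting interval lay above 1 for 4, below 1 for 1 and included 1 for 8. *Npc2*, the lysosomal sterol carrier, had 1017 and 1242 counts (ratio 1.26, interval 1.16 to 1.37), whereas *Nceh1*, a cholesterol ester hydrolase, had 2624 and 2163 (0.848, interval 0.801 to 0.898). *Osbpl5*, an oxysterol-binding protein gene, had 445 and 501 counts. Of 6 further ABC transporters, 4 had ratios above 1, with intervals above 1 for 3, below 1 for 1 and including 1 for 2. *Abca7* had 969 and 1203 counts (ratio 1.28, interval 1.17 to 1.39), *Abca2* 9030 and 9760 and *Abca3* 2331 and 2438. *Abca8a*, under that FPKM and named after its values were seen, went the other way with 549 and 440 counts (ratio 0.825, interval 0.726 to 0.937). Of 14 further regulators, 11 had ratios above 1, among them *Vcp*, the ATPase that extracts proteins from the endoplasmic reticulum (3378 and 3685 counts, ratio 1.12), and the receptor gene *Rxra* (899 and 979). Intervals of the 14 lay above 1 for 3, below 1 for none and included 1 for 11. Among all genes with at least 100 counts in each library, 20.4% had an interval above 1 and 18.9% had one below 1. *Mylip*, a ubiquitin ligase that removes lipoprotein receptors, had 441 and 382 counts and an interval of 0.775 to 1.02. Of 3 measured oxysterol genes none had an interval that excluded 1, and *Cyp7b1*, an oxysterol hydroxylase, had 293 and 312 counts.

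**Figure D4:**
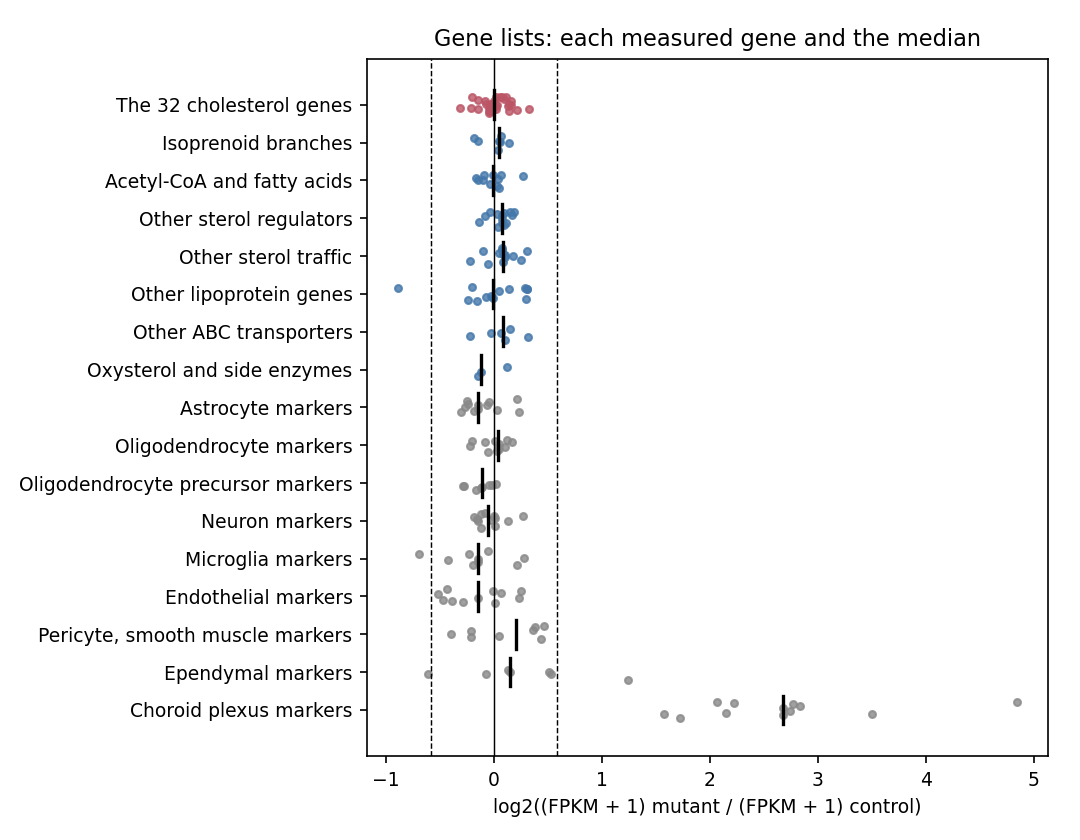
Log2 ratio of FPKM + 1, mutant over control, of every measured gene in the 32 cholesterol genes (red), the further lipid lists (blue) and the cell type marker lists (grey), with a black bar at each median and dashed lines at 1.5-fold. All 12 choroid plexus markers lie to the right of 1.5-fold, while the 32 cholesterol genes lie between -0.32 and 0.32.

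Markers of cell types, including the types that make cholesterol in the brain, were summarised in the same way. Of 12 astrocyte markers, 9 had ratios below 1, none was past 1.5-fold, and the median log2 ratio was -0.15, from -0.31 for *Sox9* to 0.23 for *Gjb6*. Their summed FPKM was 811 in control and 745 in mutant hippocampus. Of 12 oligodendrocyte markers 8 had ratios above 1, with a median of 0.03 and a summed FPKM of 954 and 960. A list of 8 markers of oligodendrocyte precursors and later stages of the lineage had a median of -0.12, with 7 ratios below 1. In it, the precursor genes *Pdgfra* and *Cspg4* had ratios of 0.962 and 1.02, with intervals that included 1. *Bcas1*, a marker of newly formed oligodendrocytes, had 3138 and 2494 counts. Neuron markers had a median of -0.06 (12 genes), microglia markers -0.15 (9 measured, 1 past 1.5-fold lower) and endothelial markers -0.15 (11 measured). Pericyte and smooth muscle markers had a median of 0.21 (8 genes) and ependymal markers 0.15 (7 measured, 1 past 1.5-fold in each direction). The ratio of *Apoe*, which astrocytes make most of, was 1.11. Among the 12 astrocyte markers, the counting interval lay above 1 for 2 (*Fgfr3* and *Gjb6*), below 1 for 7 and included 1 for 3. The part of these cell types in the ratios of the cholesterol genes was not tested.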

How the data were processed

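RNA of 2 mouse hippocampal libraries, 1 per genotype, was read from the deposited table. The authors deposited raw counts per gene (totals of 19451827 for control and 18900847 for mutant) and FPKM, which by its values is the deposited count over exon length and library total (55573 of 55573 rows, to rounding). Per the submitters' processing notes, the tools include HISAT2 2.0.1, HTSeq 0.6.1, cutadapt 1.9.1 and DESeq2, and the build is mm9. The coordinates are those of GRCm38 (31 of the 32 genes have the start and end of GENCODE M21). Of rows sharing a symbol, the one with more counts was kept (122 left out).

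The log2 ratio of FPKM + 1 was taken over genes that reached an FPKM of 1 in either library. Ratios of counts per total carry exact conditional 95% intervals (Clopper-Pearson). They were tested only on simulated counts that vary by the sampling of reads, with no spread between mice. Neither a test nor a p-value was possible. Depth sets the width of the intervals: the 32 genes had at least 144 counts in each library. BLAST 2.17.0 on GENCODE M21 transcripts gave near-identical copies (95% identity over 200 bases or more, covering 50% of the shorter one). All 32 genes are named. Of the other lists, up to 3 per list are named, first any past 1.5-fold and then those with the largest log2 ratio at an FPKM of 5 or more. *Clu*, *Lpl*, *Lrp4*, *Sort1*, *Scd2*, *Abca8a* and the named marker, tissue and sex genes were picked with their values in view. The 32 genes and the lists were chosen with earlier results of these data known. Alternatives were the pseudocount, the FPKM minimum, the scaling, the fold and the interval level. Software was scipy 1.17.1, numpy 2.4.6 and pandas 2.3.3 under Python 3.11.15, with plots by matplotlib 3.10.9. Further genes of the pathway were not analysed here.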

Additional observations from a re-analysis of the deposited data

How the results depend on the processing

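None of the 32 genes was past 1.5-fold with a pseudocount of 0.1 or 5, with an FPKM minimum of 5 or none, with scaling by the median ratio of counts, or with totals that leave out choroid plexus markers and mitochondrial genes. At 1.2-fold the count was 2, and at 2-fold it was 0. An FPKM minimum of 5 kept 25 of the 32 genes and left out *Hsd17b7* and *Soat1*, the ends of the range. The median log2 ratio of the synthesis enzymes stayed between -0.04 and -0.02 in the 6 alternatives to pseudocount, minimum and scaling, and that of all 32 genes between 0.00 and 0.01. The counting interval excluded 1 for 11 genes, for 11 with median-ratio scaling and for 9 at the 99% level. No gene whose interval excluded 1 changed direction, while *Vldlr*, at a log2 ratio of 0.00, moved to just under 0 with median-ratio scaling. Depth limits *Idi1* most, with 145 and 144 counts. No replicate could be left out and no paired analysis was possible because each genotype has 1 library, so the spread between mice is unknown for every value.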

Other observations

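Genes that share acetyl-CoA or the mevalonate pathway with cholesterol synthesis, but lead elsewhere, differed in both directions by less than 1.5-fold. Of 11 genes of acetyl-CoA and fatty acid synthesis (median log2 ratio -0.01), the counting interval lay above 1 for 1 and below 1 for 4. Among all genes with at least 100 counts in each library, 20.4% had an interval above 1 and 18.9% had one below 1. With so few genes in the list, no departure from these shares was tested. *Scd2*, the main fatty acid desaturase gene of the brain, chosen after its values were seen, had 29061 counts in control and 26268 in mutant hippocampus (ratio 0.930, exact 95% counting interval 0.915 to 0.946). *Acss2*, which makes acetyl-CoA from acetate, had 1419 and 1203 counts (ratio 0.872, interval 0.807 to 0.943), and the elongase gene *Elovl5* had 1477 and 1288 (0.897, interval 0.832 to 0.968). *Elovl6*, another elongase gene, went the other way with 1269 and 1509 counts (ratio 1.22, interval 1.14 to 1.32).

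On the isoprenoid branches (median log2 ratio 0.05), the counting interval lay above 1 for 1 of 7 genes and below 1 for 2. The shares among all genes with at least 100 counts in each library were 20.4% above 1 and 18.9% below 1. *Dhdds*, a subunit of the enzyme that makes dolichol, had 1341 counts in control and 1139 in mutant hippocampus (ratio 0.874, interval 0.807 to 0.947). *Ggps1*, which makes geranylgeranyl pyrophosphate, had 1086 and 943 counts (0.894, interval 0.818 to 0.976), and *Icmt*, which methylates prenylated proteins, had 1834 and 1969 (1.10, interval 1.04 to 1.18).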
